A study of Mus musculus with 46 samples.

Results

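The 39 genes described here drive or mark the mammalian cell cycle. They were chosen by symbol, and all 39 are present among the 17242 genes with group means at 12 weeks and among the 18531 at 18 months. They comprise 8 cyclins and cyclin-dependent kinases of G1, 3 transcription factors, 10 genes of replication licensing and DNA synthesis, 5 genes of mitotic entry and 13 genes of mitosis and cytokinesis. RNA came from kidney and liver of wild-type C57BL6 mice in 3 arms, males castrated, males given a sham operation and females given a sham operation, with surgery at 8 weeks of age in all arms and tissue taken at 12 weeks or 18 months. The 46 libraries form 12 groups, with 3 libraries in each sham group, 6 per tissue in castrated males of 12 weeks and 5 in those of 18 months. No unoperated or hormone-treated animals and no ovariectomized females were among these groups, so every animal had undergone an operation. The series asks how castration bears on sex differences in ageing.

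A cell enters the cycle in G1, when D-type cyclins activate Cdk4 and Cdk6 and release E2F factors from the retinoblastoma protein. E2F factors switch on genes for licensing origins, for making deoxynucleotides and for copying DNA, and a later wave driven by Foxm1 and its partners switches on genes for chromosome segregation and cell division. Adult kidney and liver are largely quiescent, and most cells leave the cycle until injury or loss of tissue calls them back.

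Every value below is the authors' group mean. The 12-week values are FPKM, fragment counts scaled for transcript length and sequencing depth. The unit of the 18-month values is unnamed, and they are called expression units. The group means carry no spread, so whether single libraries of different groups overlap cannot be read, and the depth per library is unknown. The ages were processed separately and were never tested against each other. "Rose", "fell", "higher" and "lower" as results refer to genes past the adjusted p threshold of 0.05 in the authors' deposited tables, and differences are of log2(mean + 1), which understates the fold of low genes. At 18 months the log2 folds come from the authors' DESeq2 tests, and the standard error beside each is the one implied by the fold and its p-value. At 12 weeks each gene has a test for 1 of the 3 comparisons only, by a rule that is not stated, so a count at 12 weeks is a lower bound. Nothing in the labels says whether libraries of a group came from separate animals, so the p-values measure the spread between these samples.

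Kidney and liver matched their labels. Kidney markers summed to between 2304 and 5512 in the kidney groups and to between 0.143 and 0.807 in the liver groups, and liver markers summed to between 23543 and 79348 in liver and to between 115 and 1454 in kidney. Albumin was listed at 0 in all 12-week liver groups. Whether strand was used in counting is not stated, so reads of a gene and of a partner on the other strand cannot be told apart. The annotated exons of 13 members share bases with another gene, and 6 members share at least 10% of theirs. The largest shares were those of Kif20a with 29.3% (Cdc23), Ccnd1 with 23.4% (LTO1) and Cdk4 with 19.7% (Tspan31).

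Members ranged from scarce to abundant in both tissues, and none was listed at 0. In sham males, 19 of 39 reached a mean of 1 FPKM in 12-week kidney and 17 did in 12-week liver, and 21 in 18-month kidney and 16 in 18-month liver reached 1 expression unit. Per transcript length at 12 weeks, the most abundant members were Cdk4, Ccnd3, Ccnd1 and Pcna in kidney of sham males, at 87.7, 50.8, 32.8 and 17.7 FPKM. Genes of mitotic entry lay between 0.0939 and 1.56 FPKM and genes of mitosis between 0.0786 and 1.24 FPKM in the same group. In 18-month liver, 0 of 5 genes of mitotic entry and 1 of 13 mitotic genes reached 1 unit in sham males, against 3 of 5 and 5 of 13 in sham females. In 18-month liver the median member was at 0.71 units for sham males, 0.688 for castrated males and 1.71 for sham females. In 18-month kidney the medians were 1.24, 1.26 and 0.997.

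**Figure D1:**
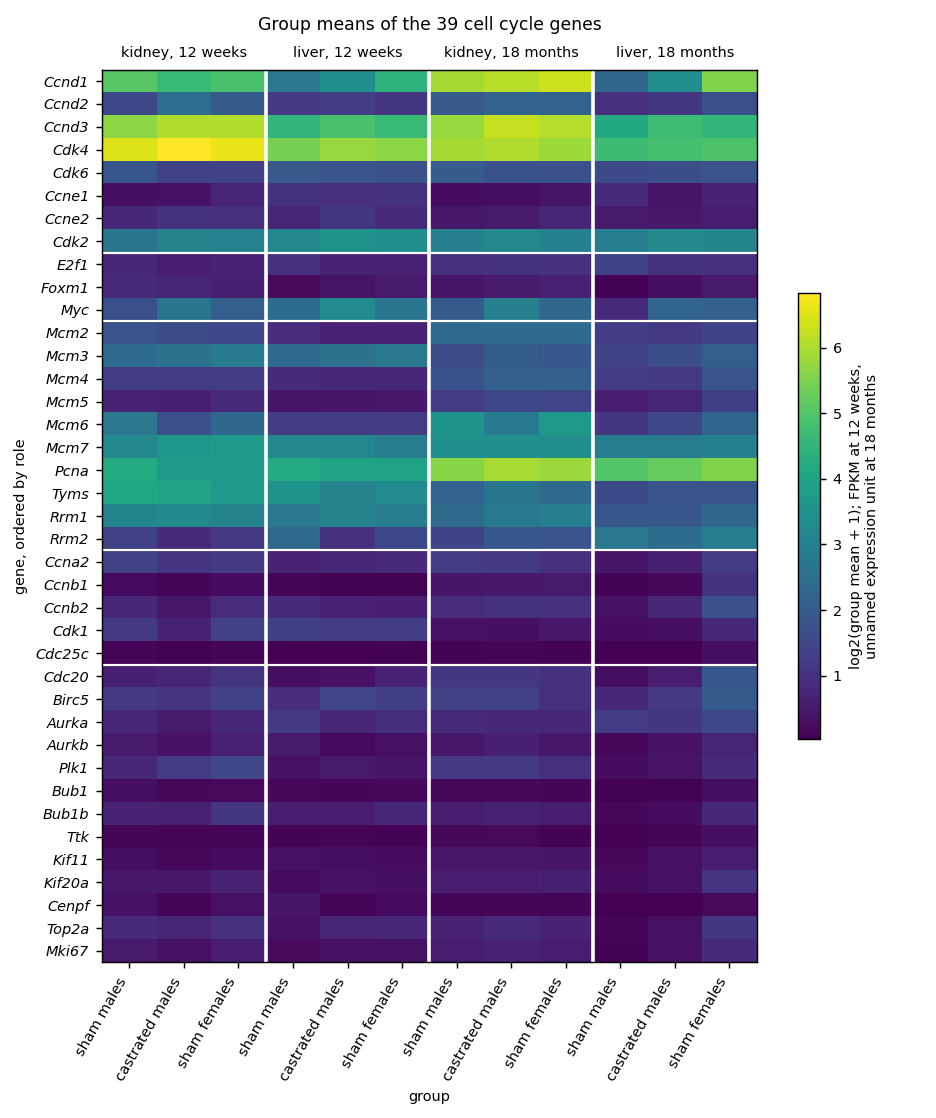
Group means of the 39 genes (rows, ordered by role, with white lines between roles) in the 12 groups (columns), as log2(mean + 1) of FPKM at 12 weeks and of the unnamed expression unit at 18 months, so colours are not comparable between ages. Ccnd3, Cdk4 and Pcna were bright in every block. Within the 18-month liver block all 13 mitotic genes at the bottom had their highest mean in sham females, against 46.4% of all genes reaching a mean of 1.

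Set side by side without a test, 34 of 39 members had a higher mean in kidney than in liver in 18-month sham males and 34 in castrated males, against 17 in sham females. At 12 weeks the counts were 26, 21 and 32. The same counts over all genes were not made, so whether these are particular to the members cannot be read. The median member difference in log2(mean + 1), kidney minus liver, was 0.46, 0.32 and -0.12 in 18-month sham males, castrated males and females. A test of kidney against liver was not used here.

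The comparison with the most called members at 18 months was that of sham females with sham males in liver. Of the 39 members, 9 were higher in sham females than in sham males and 0 were lower, where 9.78% of all 16659 genes tested were called, 5.87% of them higher and 3.91% lower. The 9 were Ccnd1, Ccnd2, Myc, Mcm6, Ccnb1, Cdc20, Bub1b, Top2a and Mki67. The median member was 0.52 higher in females on the log2(mean + 1) scale, where the median of all genes reaching a mean of 1 was 0.14 higher. Females had the highest mean of the 3 arms for 33 of 39 members (84.6%), against 46.4% of the 11351 genes that reached a mean of 1. The members were taken at any level, and 14 of the 39 lay below 1 unit in females, so the shares cover unlike levels.

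With castration fewer members were called in that tissue. In 18-month liver 2 members rose with castration, Myc and Mki67, and 0 fell, where 2.09% of all genes were called, 1.08% higher and 1.01% lower. The median member differed by 0.13 and the median of all genes reaching a mean of 1 by 0.12. Against sham females, castrated males had 1 lower member, Ccnd1, where 1.13% of all genes were called, 0.53% higher and 0.595% lower, and the median member was at -0.40. At an unadjusted p under 0.05 in the DESeq2 tests, 16 members, Ccnd1 included, were lower in castrated males than in females and 0 were higher, where 5.74% of all genes tested were lower and 4.15% higher at that limit. The comparisons share their control groups, so their values are not independent.

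Markers of other cell types moved in the same liver groups. The 14 macrophage markers summed to 151 in 18-month sham males, 228 in castrated males and 655 in sham females, and 8 of 14 were higher in females. The 11 stromal markers summed to 112, 129 and 298, with 9 of 11 higher in females, and the 12 endothelial markers to 67.0, 80.2 and 133, with 5 of 12 higher. T cell markers summed to 2.37, 9.31 and 11.8, and 3 of 11 were higher in females. B and plasma cell markers summed to 9.56, 30.6 and 23.6, and 1 of 8 was higher. With castration 2 of 11 T cell markers rose, where 1.08% of all genes were higher. No macrophage, stromal, endothelial or B and plasma cell marker was called there. Against females 5 of 11 stromal markers were lower in castrated males, where 0.595% of all genes were lower. No macrophage, endothelial, T cell or B and plasma cell marker was called in that comparison. The 16 markers of neutrophils and erythroid precursors summed to 1008, 1521 and 929.8, with Ly6g listed at 0 in both sham arms, and no marker of the other lists was at 0. Of these 16, 0 rose and 1 fell with castration. Of the 15 tested for sex, 0 were higher in females and 1 was lower. Alas2 was the lower one both times, against the direction of the castration sums. The liver markers themselves summed to 74457, 79348 and 76873. The part of these cell types in the result was not tested, and in bulk tissue fewer cells of a type and less RNA per cell cannot be told apart.

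**Figure D2:**
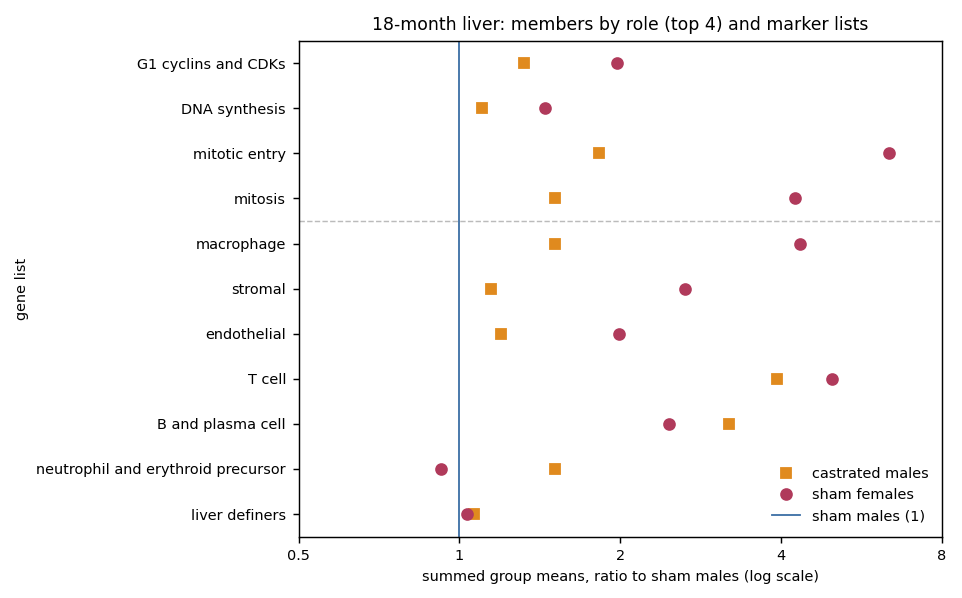
Summed group means in 18-month liver of castrated males (squares) and sham females (circles) as a ratio to sham males (vertical line at 1), on a log axis, for members by role above the dashed line and for marker lists below it. Mitotic entry and mitosis genes of females stood at ratios of 6.36 and 4.25, macrophage markers at 4.34, and liver markers at 1.03.

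In 18-month kidney 2 members differed between females and sham males. Rrm1 was the 1 higher in females and Cdk6 the 1 lower, where 16.8% of all genes were called, 7.91% higher and 8.9% lower. With castration 5 members rose (Ccnd3, Tyms, Rrm1, Rrm2 and Myc) and 2 fell (Cdk6 and Mcm6), where 22.7% of all genes were called, 9.56% higher and 13.1% lower. Castrated males exceeded females for Tyms and Myc and were below them for Mcm6, where 7.14% of all genes were called, 2.73% higher and 4.41% lower. The members' medians were 0.06 (castration), 0.05 (females against sham males) and 0.04 (castrated males against females). The median of all genes reaching a mean of 1 was at 0.13, 0.11 and 0.01, and centred on it the first 2 medians were -0.06 and -0.06. In this tissue 5 of the 12 endothelial markers rose with castration (summed 319.9, 462 and 393 in sham males, castrated males and females). Of 12 tested markers of neutrophils and erythroid precursors, 3 also rose (list sums 3494, 5275 and 2754). These 3 were the globin genes Hba-a1, Hba-a2 and Hbb-bs, and no other marker of that list was called. The neutrophil genes Mpo, Elane, Camp and Ly6g were listed at 0 in sham and castrated males. Of the 7 kidney markers, 6 were called with castration in these kidneys, with Umod, Slc12a1, Slc12a3 and Nphs1 higher and Slc34a1 and Lrp2 lower (summed 4528, 4826 and 5512). Between females and sham males 4 of the 7 were higher and 1 was lower. The part of these markers' cells in the result was not tested.

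At 12 weeks, 9 members were listed for castration in kidney and all 9 were called, 4 higher (Ccnd2, Cdk2, Plk1 and Myc) and 5 lower (Ccnd1, Cdk1, Pcna, Mcm6 and Rrm2). Of the 3851 genes tested for that comparison 70.7% were called, 32.8% higher and 37.9% lower, so the listing sets much of this count. For sex in kidney, 3 members were listed, 2 were tested and 1, Cdk6, was lower in females, where 86.5% of the genes tested were called, 44.4% higher and 42.1% lower. Castrated males against females had 27 members listed and 20 tested, of which Ccnb2 and Bub1b were lower in castrated males, where 7.7% were called, 4.77% higher and 2.93% lower. Castrated males had the lowest mean of the 3 arms for 21 of 39 members (53.8%), including all 5 genes of mitotic entry and 10 of 13 mitotic genes, against 18.6% of the 11915 genes that reached a mean of 1. The members were counted at any level, and 12 of the 13 mitotic genes lay below 1 FPKM in sham males, so the 2 shares cover unlike levels. In the same kidneys all 7 stromal markers tested for castration rose. So did 4 of 5 endothelial, 3 of 3 B and plasma cell and 3 of 3 macrophage markers tested. The lists hold 11, 12, 8 and 14 markers in that order. Of 5 tested markers of neutrophils and erythroid precursors, 1 rose and 2 fell. In sham males, castrated males and females, stromal markers summed to 75.0, 165 and 193 and endothelial markers to 286, 409.7 and 449. The sums were 10.4, 32.3 and 41.8 for B and plasma cell markers and 69.2, 74.7 and 103 for macrophage markers. Of the 7 kidney markers 3 were tested for castration there, with Aqp2 and Slc12a1 higher and Umod lower. Their part was not tested.

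In 12-week liver, 8 members were listed for castration and 4 tested, with Myc higher and Aurka lower, where 41.7% of the genes tested were called, 20.2% higher and 21.5% lower. No member was listed for sex, where all 628 genes listed were called, 47.1% higher and 52.9% lower. For castrated males against females 31 were listed and 19 tested, with Ccnd1 and Rrm2 lower in castrated males, where 6.85% were called, 2.58% higher and 4.28% lower. The members' median differences in the 3 comparisons were 0.01, 0.01 and -0.01. Of 14 macrophage markers (summed 103, 160.0 and 282 FPKM), 4 were tested for castration and all 4 rose. For sex 3 were tested, and all 3 were higher in females. For castrated males against females 6 were tested, and all 6 were lower in castrated males. Of 8 B and plasma cell markers (8.98, 26.4 and 16.5 FPKM), 5 were tested for castration and all 5 rose. Against females 3 of them were tested, and 2 were higher in castrated males. Of the other lists, 2 of 2 T cell, 1 of 2 endothelial and 1 of 2 stromal markers tested for castration rose. Of 7 tested markers of neutrophils and erythroid precursors, 3 rose and 2 fell. Against females, 2 of 2 of these and 1 of 10 endothelial markers tested were lower in castrated males. None of 9 stromal and 3 T cell markers tested was called there. The part of these cell types was not tested.

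**Figure D3:**
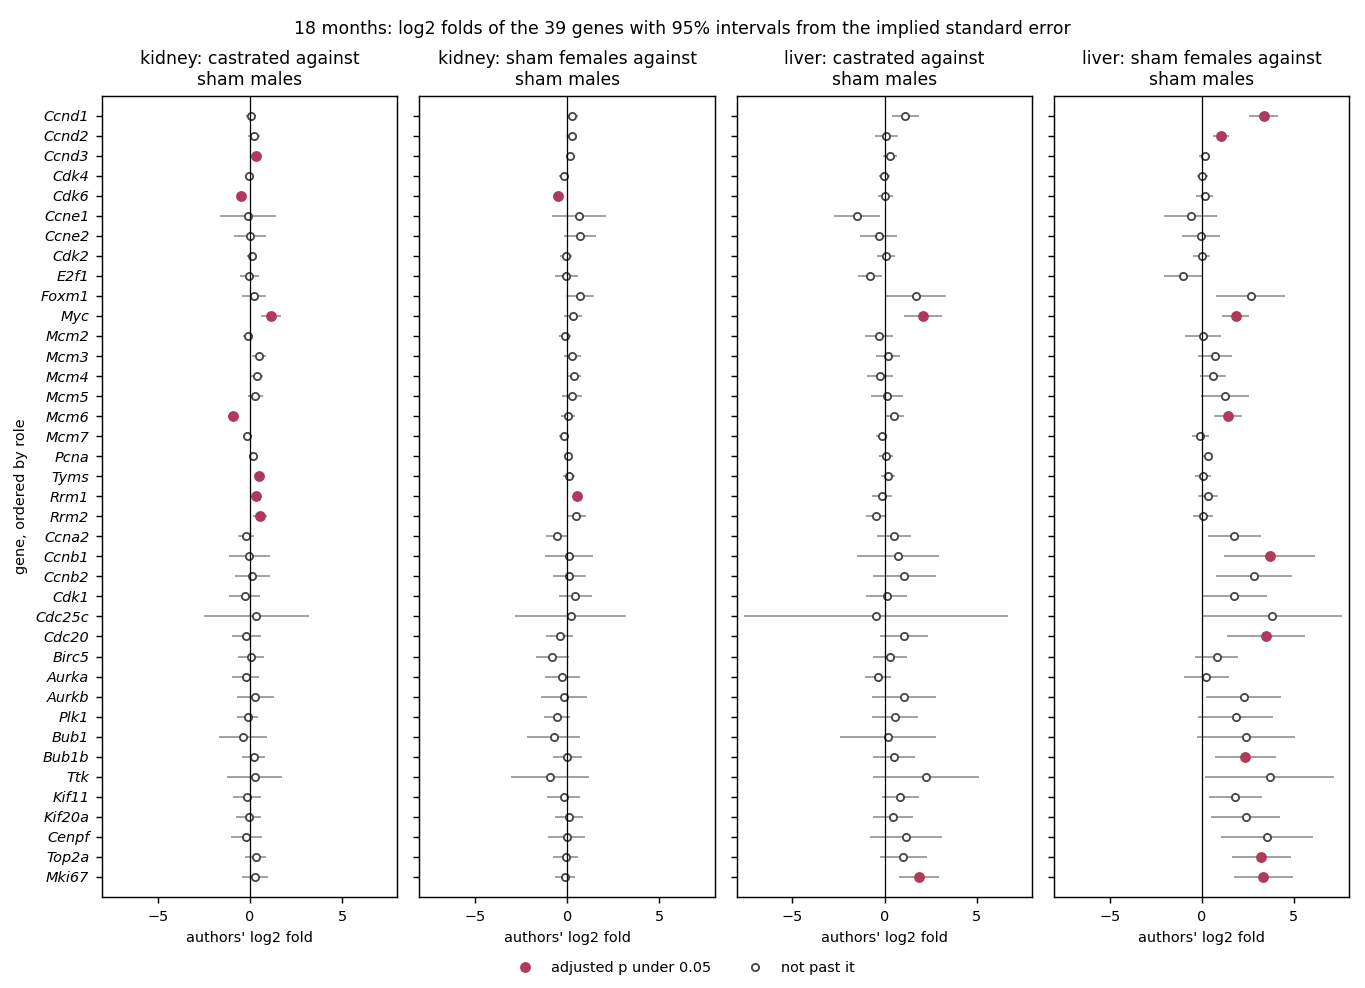
The authors' log2 folds at 18 months for the 39 genes (rows, ordered by role), with 95% intervals from the implied standard error, for castrated males and for sham females against sham males in each tissue. Filled points passed an adjusted p of 0.05, 7 and 2 in the kidney panels and 2 and 9 in the liver panels, and the intervals of scarce mitotic genes in liver were wide.

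Among the G1 genes, Ccnd1 (chr7:144929931-144939925 in mm10, minus strand) stood apart. It encodes cyclin D1, the cyclin that links growth signals to Cdk4 and Cdk6. Its mean in 18-month liver was 3.87 units in sham males against 9.27 in castrated males and 46.0 in sham females. The female liver mean was the highest by far, castrated males lay between the other two, and female liver came near the kidney means of 59.4, 67.5 and 79.2. In the authors' deposited table the female log2 fold in liver was 3.36 (implied standard error 0.397, DESeq2 adjusted p = 6.37e-15), and castrated males were lower than females by -2.23 (0.431, adjusted p = 1.97e-04). The castration fold in that table was 1.12 (0.376), with an adjusted p of 0.107 that missed the threshold. The same order was present at 12 weeks, with 5.59, 9.74 and 20.5 FPKM across the same arms in liver. There the authors' deposited table lists only castrated males against females (difference -1.004, adjusted p = 0.00223). In 12-week kidney Ccnd1 instead fell with castration, from 32.8 to 23.4 FPKM (28.3 in females, difference -0.47, adjusted p = 0.0140 in the authors' deposited table). The kidney difference at 18 months did not pass for castration (log2 fold 0.04, adjusted p = 0.911 in the authors' deposited table).

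Ccnd2 (chr6:127125162-127152193, minus strand), the cyclin D2 gene, was scarcer. In 12-week kidney it rose with castration, from 1.85 to 4.56 FPKM, with 2.88 in females (difference 0.97, adjusted p = 0.00725 in the authors' deposited table). Its 12-week liver means were 1.24, 1.40 and 1.17 FPKM. In 18-month kidney the means were 2.79, 3.63 and 3.58 units, with no call. In 18-month liver they were 0.963, 1.18 and 2.25, and females were higher (log2 fold 1.03, implied standard error 0.226, adjusted p = 2.64e-04 in the authors' deposited table).

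Ccnd3, the cyclin D3 gene, was among the most abundant members in each tissue at 12 weeks. It rose with castration in 18-month kidney, from 54.2 to 75.1 units, with 66.9 in females (log2 fold 0.31, implied standard error 0.118, adjusted p = 0.0375 in the authors' deposited table). Elsewhere no test of it passed. Its means were 50.8, 66.1 and 65.0 FPKM in 12-week kidney, 21.8, 28.3 and 23.7 FPKM in 12-week liver, and 16.8, 25.5 and 22.3 units in 18-month liver. Castrated males had the highest mean of the 3 arms in all 4 settings.

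Cdk4 and Cdk6 are the kinase partners of the D cyclins. Cdk4 passed no test, with 87.7, 114 and 98.5 FPKM in 12-week kidney, 42.7, 54.2 and 49.1 FPKM in 12-week liver, 59.5, 63.7 and 56.8 units in 18-month kidney and 25.1, 27.5 and 29.8 units in 18-month liver. Among the 3 kidney arms, Cdk6 (chr5:3341485-3531008, plus strand) had its highest mean in sham males at each age. Its 12-week kidney means were 2.61, 1.55 and 1.58 FPKM, and females were lower than sham males (difference -0.49, adjusted p = 0.0241 in the authors' deposited table). Its 18-month kidney means were 2.97, 2.38 and 2.27 units. Both males after castration and females were below sham males there, with log2 folds of -0.48 (implied standard error 0.116, adjusted p = 3.71e-04) and -0.52 (0.134, adjusted p = 0.00117) in the authors' deposited table. In liver Cdk6 was not called, at 2.81, 2.42 and 2.31 FPKM at 12 weeks and 1.89, 2.16 and 2.43 units at 18 months.

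Cdk2, which drives the entry into S phase with cyclin E, rose with castration in 12-week kidney, from 5.51 to 7.50 FPKM, with 7.21 in females (difference 0.39, adjusted p = 0.0241 in the authors' deposited table). It was not called elsewhere, at 8.17, 10.4 and 9.78 FPKM in 12-week liver, 6.91, 8.15 and 7.12 units in 18-month kidney and 6.69, 8.35 and 7.80 units in 18-month liver. The cyclin E genes were scarce. Ccne2 was at 0.755, 1.04 and 0.931 FPKM in 12-week kidney and at 0.669, 1.18 and 0.805 in liver, and Ccne1 was at 1.02, 0.919 and 1.04 FPKM in 12-week liver, with no call for either gene. At 18 months both stayed below 1 unit in every group.

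Myc was the member called most often. It encodes a transcription factor that promotes growth and entry into the cycle, and it lies on chr15:61985391-61990374 (plus strand). Its means rose with castration in both tissues at both ages. In 12-week kidney it was at 2.21, 5.403 and 3.22 FPKM across sham males, castrated males and females (castration difference 0.99, adjusted p = 4.76e-04 in the authors' deposited table). In 12-week liver it was at 4.40, 9.0 and 5.57 FPKM (0.89, adjusted p = 8.56e-04 in the authors' deposited table). These 12-week p-values are the smallest adjusted values that the tables hold. In 18-month kidney the means were 2.89, 6.97 and 3.87 units, with castrated males above both other arms. The authors' deposited table gives log2 folds of 1.14 (implied standard error 0.273, DESeq2 adjusted p = 3.39e-04) against sham males and 0.85 (0.263, adjusted p = 0.0240) against females. For females against sham males the fold was 0.30, with an adjusted p of 0.542 in the authors' deposited table. In 18-month liver the means were 0.813, 3.76 and 3.37 units, so that sham males were low and the other arms lay close together. The liver folds in the authors' deposited table were 2.08 for castration (0.528, adjusted p = 0.00602) and 1.84 for sex (0.380, adjusted p = 7.87e-05), and castrated males against females gave 0.25 with a 95% interval from -0.70 to 1.197.

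**Figure D4:**
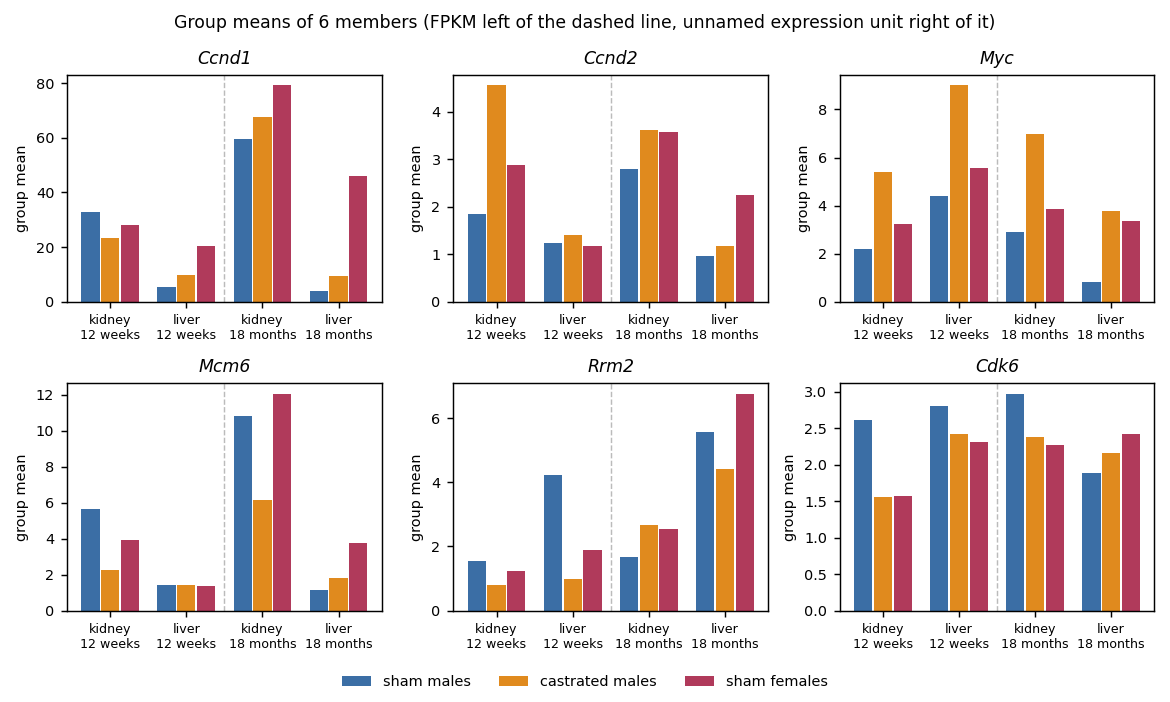
Group means of Ccnd1, Ccnd2, Myc, Mcm6, Rrm2 and Cdk6 in sham males, castrated males and sham females, in FPKM at 12 weeks (left of the dashed line) and in the unnamed unit at 18 months (right of it), without error bars because the deposited means carry no spread. Myc was highest in castrated males in all 4 settings, Ccnd1 in 18-month liver was at 46.0 in females against 3.87 in sham males, and Mcm6 was lowest in castrated males in both kidney settings.

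The other transcription factors were low. E2f1, an activator of the S phase genes, was at 0.963, 1.05 and 1.02 units in 18-month kidney and at 1.65, 1.05 and 0.953 in 18-month liver, with no call at either age. In 18-month liver it and Ccne1 were the 2 members whose female mean lay below that of sham males. Foxm1, which drives the mitotic genes, was below 1 in every group. Its 18-month liver means were 0.0667, 0.232 and 0.433 units, and the female fold of 2.65 (implied standard error 0.960) had an adjusted p of 0.0555 in the authors' deposited table.

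Among the genes of replication licensing and DNA synthesis, Mcm6, Pcna, Tyms, Rrm1 and Rrm2 were called in at least 1 comparison. The Mcm2 to Mcm7 proteins form the helicase that is loaded at origins. Only Mcm6 (chr1:128331590-128359664, minus strand) among the 6 passed a test in any comparison. It fell with castration in 12-week kidney, from 5.64 to 2.23 FPKM, with 3.91 in females (difference -1.04, adjusted p = 4.76e-04 in the authors' deposited table). In 18-month kidney its means were 10.8, 6.14 and 12.0 units, so castrated males were below both other arms. The authors' deposited table gives -0.94 (implied standard error 0.136, DESeq2 adjusted p = 2.25e-10) against sham males and -0.96 (0.153, adjusted p = 5.72e-08) against females. Females against sham males were at 0.03 there, with a 95% interval from -0.34 to 0.40. Liver differed from this. Its 12-week liver means were 1.42, 1.41 and 1.36 FPKM, and at 18 months they were 1.17, 1.82 and 3.74 units, with females higher than sham males (log2 fold 1.42, implied standard error 0.397, adjusted p = 0.00747 in the authors' deposited table).

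The other helicase subunits gave no call. In 18-month kidney of sham males, castrated males and females, Mcm2 was at 4.25, 4.34 and 4.31 units, Mcm4 at 2.34, 3.36 and 3.30, and Mcm7 at 9.98, 9.92 and 9.59. Mcm3 was at 2.01, 3.12 and 2.64 units there, and its castration fold of 0.50 (implied standard error 0.198) had an adjusted p of 0.0523 in the authors' deposited table, just above the limit of 0.05. Mcm5 was at 1.34, 1.82 and 1.75 units. Mcm6 was thus the one subunit of this complex with a called difference in kidney. In 18-month liver Mcm2 was at 1.41, 1.26 and 1.71 units, Mcm3 at 1.66, 2.16 and 3.24, Mcm4 at 1.38, 1.28 and 2.47, Mcm5 at 0.527, 0.648 and 1.47 and Mcm7 at 6.53, 6.56 and 7.19. All 5 had their highest mean in females, as did 46.4% of all genes that reached a mean of 1 in that tissue. At 12 weeks, Mcm2 was at 2.48, 2.05 and 1.76 FPKM in kidney, Mcm4 at 1.38, 1.37 and 1.34, Mcm3 at 4.27, 5.03 and 6.14 and Mcm7 at 8.23, 11.3 and 11.9. In 12-week liver Mcm3 was at 4.11, 5.05 and 5.75 FPKM and Mcm7 at 8.32, 8.16 and 6.52.

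Pcna encodes the sliding clamp of the DNA polymerases, which also serves in repair. In 12-week kidney it fell with castration, from 17.7 to 12.5 FPKM, with 12.0 in females (difference -0.47, adjusted p = 0.01003 in the authors' deposited table). In the other settings it passed no test, at 17.3, 14.4 and 14.5 FPKM in 12-week liver, 48.9, 61.1 and 55.2 units in 18-month kidney and 31.6, 36.6 and 45.8 units in 18-month liver.

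Tyms makes thymidylate, and Rrm1 and Rrm2 encode the 2 subunits of ribonucleotide reductase, which makes deoxynucleotides. All 3 rose with castration in 18-month kidney. Tyms went from 3.54 to 5.45 units with 4.09 in females, and castrated males exceeded both sham males (log2 fold 0.49, implied standard error 0.123, adjusted p = 7.13e-04) and females (0.41, 0.129, adjusted p = 0.0270) in the authors' deposited table. Rrm1 went from 4.22 to 5.93 units against 6.76 in females. The folds in the authors' deposited table were 0.34 for castration (0.109, adjusted p = 0.00957) and 0.55 for sex (0.132, adjusted p = 3.92e-04). Rrm2 went from 1.66 to 2.66 units with 2.55 in females (0.54, 0.202, adjusted p = 0.0370 in the authors' deposited table).

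At 12 weeks the direction of Rrm2 was the other way. In kidney it fell with castration, from 1.55 to 0.794 FPKM, with 1.24 in females (difference -0.51, adjusted p = 0.00294 in the authors' deposited table). In 12-week liver the means were 4.22 FPKM (sham males), 0.985 (castrated males) and 1.90 (females). The table lists only castrated males against females for it there, where castrated males were lower (difference -0.55, adjusted p = 0.00343 in the authors' deposited table), so the larger gap between castrated and sham males, -1.40, has no test. In 18-month liver Rrm2 was at 5.58, 4.41 and 6.75 units with no call. Tyms and Rrm1 had no call at 12 weeks, at 16.1, 15.2 and 12.0 FPKM (Tyms) and 7.53, 8.82 and 7.36 FPKM (Rrm1) in kidney, and at 10.7, 7.45 and 8.88 FPKM (Tyms) and 5.76, 7.38 and 6.54 FPKM (Rrm1) in liver. In 18-month liver Tyms was at 1.97, 2.51 and 2.38 units and Rrm1 at 2.71, 2.70 and 4.03.

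Genes of mitotic entry were scarce, and their calls fell in 2 settings. Ccnb1 encodes cyclin B1, which with Cdk1 starts mitosis. Its 18-month liver means were 0.0767, 0.136 and 1.05 units, and females were higher than sham males (log2 fold 3.69, implied standard error 1.26, adjusted p = 0.0398 in the authors' deposited table). Ccnb2 followed the same order at 0.267, 0.688 and 2.28 units, but its adjusted p for sex was 0.0631 in the authors' deposited table. Ccna2, the S phase and G2 cyclin, was at 0.330, 0.542 and 1.33 units in that tissue, also without a call. In 12-week kidney Cdk1 fell with castration, from 1.29 to 0.600 FPKM, with 1.60 in females (difference -0.52, adjusted p = 0.0342 in the authors' deposited table). Ccnb2 in the same kidneys was at 0.773, 0.379 and 0.846 FPKM, and castrated males were lower than females (-0.42, adjusted p = 0.0155 in the authors' deposited table). Cdc25c, the phosphatase that activates Cdk1, was the lowest of the 5, at 0.0267, 0.0220 and 0.24 units in 18-month liver. Ccna2 was at 1.56, 1.13 and 1.28 FPKM in 12-week kidney and at 1.34, 1.28 and 1.01 units in 18-month kidney, and Cdk1 at 1.496, 1.31 and 1.39 FPKM in 12-week liver, with no call for these. Ccnb2 was at 0.853, 1.03 and 0.997 units in 18-month kidney.

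In 18-month liver, 4 of the 13 mitotic genes passed the test as higher in females against sham males. All 13 had their highest mean in females there and 12 of 13 their lowest in sham males. Of all genes that reached a mean of 1 in that tissue, 46.4% were highest in females and 59.0% lowest in sham males. The mitotic genes were counted at any level, so the shares cover unlike levels. Mki67, whose protein coats mitotic chromosomes and marks cycling cells, was at 0.0733, 0.288 and 0.810 units. It was higher than in sham males both in castrated males (log2 fold 1.85, implied standard error 0.560, adjusted p = 0.0461) and in females (3.34, 0.808, adjusted p = 0.00129) in the authors' deposited table. Top2a, the topoisomerase that untangles replicated chromosomes, was at 0.113, 0.26 and 1.19 units (females 3.23, 0.816, adjusted p = 0.00231 in the authors' deposited table). Cdc20, the activator of the anaphase-promoting complex, was at 0.213, 0.488 and 2.76 units (females 3.46, 1.08, adjusted p = 0.0205 in the authors' deposited table). Bub1b, a kinase-like protein of the spindle checkpoint, was at 0.127, 0.202 and 0.737 units (females 2.36, 0.834, adjusted p = 0.0478 in the authors' deposited table). Birc5 (survivin) was at 0.710, 1.22 and 2.91 units, the mitotic kinase Aurka at 1.30, 1.14 and 1.83, and the cytokinesis motor Kif20a at 0.187, 0.274 and 1.07, with no call. Cenpf at 0.0200, 0.0320 and 0.140 units had a female adjusted p of 0.0553 in the authors' deposited table. The macrophage and stromal markers that were also higher in these female livers are given above.

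In 18-month kidney no mitotic gene was called in any comparison. Mki67 was at 0.457, 0.604 and 0.453 units there, with a castration fold of 0.27 and a 95% interval from -0.41 to 0.95. Cdc20 was at 1.2, 1.16 and 0.987, Plk1 at 1.24, 1.26 and 0.930, and Birc5 at 1.56, 1.55 and 0.950. At 12 weeks 3 mitotic genes were called. Plk1, a kinase of many mitotic steps, rose with castration in kidney from 0.738 to 1.335 FPKM, with 1.76 in females (difference 0.43, adjusted p = 0.0480 in the authors' deposited table). Bub1b was at 0.622, 0.588 and 1.16 FPKM in kidney, and castrated males were lower than females (-0.44, adjusted p = 0.0402 in the authors' deposited table). Aurka fell with castration in liver from 1.25 to 0.708 FPKM, with 0.895 in females (-0.40, adjusted p = 0.0416 in the authors' deposited table). Birc5 was at 1.24, 1.07 and 1.53 FPKM in 12-week kidney and at 0.843, 1.75 and 1.44 in liver, and Cdc20 was at 0.552, 0.680 and 1.06 FPKM in kidney, without a call. The remaining mitotic genes stayed below 1 FPKM in every 12-week group.

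The 250 bases before the RefSeq start are printed here for 6 of the genes higher in 18-month female liver. Genes of these phases are known to carry a few shared promoter elements. Sequences are from RefSeq in GRCm38.p6 (mm10), 5′ to 3′ on the gene's strand. Capitals mark 3 kinds of letters on either strand, which are the cell cycle homology region (TTTGAA or TTCGAA, the latter its own reverse complement), the CCAAT box (CCAAT, or ATTGG on the other strand) and the E2F site (TTTCCCGC, TTTGGCGC, TTTCGCGC or TTTGCCGC). The windows are chr13:100786487-100786736 for Ccnb1, chr1:128359706-128359955 for Mcm6, chr4:118437344-118437593 for Cdc20, chr2:118597961-118598210 for Bub1b, chr11:99024190-99024439 for Top2a and chr7:135716380-135716629 for Mki67, with Bub1b on the plus strand and the others on the minus strand. All positions are counted from the RefSeq start. The Mcm6 window did not match the start of a transcript in GENCODE vM21. On the minus strand the GENCODE gene begins at 100786570 for Ccnb1 and at 118437352 for Cdc20, inside their windows. The letters nearest the RefSeq start of these genes thus lie within the gene as GENCODE draws it.
Ccnb1: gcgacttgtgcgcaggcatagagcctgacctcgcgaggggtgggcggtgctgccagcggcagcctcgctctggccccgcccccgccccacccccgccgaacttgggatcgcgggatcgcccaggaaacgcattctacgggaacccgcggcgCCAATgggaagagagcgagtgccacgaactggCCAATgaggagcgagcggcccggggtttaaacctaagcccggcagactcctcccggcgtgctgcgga
Mcm6: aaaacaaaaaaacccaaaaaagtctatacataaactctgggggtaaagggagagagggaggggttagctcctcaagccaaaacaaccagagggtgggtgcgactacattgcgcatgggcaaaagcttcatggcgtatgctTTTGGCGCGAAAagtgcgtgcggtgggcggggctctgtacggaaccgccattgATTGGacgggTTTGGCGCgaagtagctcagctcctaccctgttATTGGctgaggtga
Cdc20: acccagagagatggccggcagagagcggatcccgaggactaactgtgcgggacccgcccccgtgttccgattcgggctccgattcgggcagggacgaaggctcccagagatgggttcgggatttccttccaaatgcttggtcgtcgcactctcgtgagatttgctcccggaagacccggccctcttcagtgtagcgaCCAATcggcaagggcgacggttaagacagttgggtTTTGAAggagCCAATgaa
Bub1b: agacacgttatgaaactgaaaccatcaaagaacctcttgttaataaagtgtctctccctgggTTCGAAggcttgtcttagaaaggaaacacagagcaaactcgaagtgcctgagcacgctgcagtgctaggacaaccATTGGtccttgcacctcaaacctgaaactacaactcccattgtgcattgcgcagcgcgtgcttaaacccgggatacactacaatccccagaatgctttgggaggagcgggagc
Top2a: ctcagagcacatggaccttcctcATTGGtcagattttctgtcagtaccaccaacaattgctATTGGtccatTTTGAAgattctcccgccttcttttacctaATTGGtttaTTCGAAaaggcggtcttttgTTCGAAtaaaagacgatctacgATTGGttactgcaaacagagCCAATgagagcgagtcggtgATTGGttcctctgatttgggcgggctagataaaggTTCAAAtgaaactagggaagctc
Mki67: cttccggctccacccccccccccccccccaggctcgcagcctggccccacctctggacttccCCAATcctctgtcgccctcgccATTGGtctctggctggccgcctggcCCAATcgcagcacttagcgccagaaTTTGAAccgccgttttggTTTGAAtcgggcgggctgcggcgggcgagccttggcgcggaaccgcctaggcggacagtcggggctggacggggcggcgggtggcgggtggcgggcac

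Top2a held 6 CCAAT boxes and 4 stretches with the cell cycle homology letters in its window, at positions -179 to -174, -140 to -135, -120 to -115 and -23 to -18 from the start. Cdc20 held the homology letters at -18 to -13 between CCAAT boxes at -53 to -49 and -8 to -4, Mki67 held them at -116 to -111 and -98 to -93, and Bub1b at -188 to -183. Ccnb1 held CCAAT boxes at -99 to -95 and -67 to -63. Mcm6 was the only one of the 6 with E2F letters, at -110 to -103, at -106 to -99 on the other strand, which overlaps the first, and at -47 to -40. Of the 39 members 29 had an entry in the promoter table. CCAAT letters were in 22 of these 29 windows (75.9%), against 34.5% of the windows of all 27025 genes in the table. Cell cycle homology letters were in 9 (31.0%, against 17.4%) and E2F letters in 5 (17.2%, against 1.91%). By role, 10 of 11 mitotic windows held CCAAT letters, 5 of 11 the homology letters and 0 of 11 the E2F letters, while 3 of 9 replication windows held E2F letters (Mcm5, Mcm6 and Mcm7). A match is a description of letters and not a bound site.

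Beyond the 39 members, Cdkn1c, which encodes the inhibitor p57 of the cyclin-dependent kinases, rose with castration in all 4 settings. Its means in sham males, castrated males and females were 26.1, 42.3 and 41.7 FPKM in 12-week kidney, 1.62, 4.02 and 4.17 FPKM in 12-week liver, 19.5, 35.8 and 26.9 units in 18-month kidney and 0.747, 2.97 and 3.03 units in 18-month liver. The castration adjusted p-values in the authors' deposited tables were 0.00698, 0.0107, 1.65e-10 and 1.68e-07 in that order. Of its exon bases 30.7% are shared with an antisense gene. Cdkn1a, which encodes p21, fell with castration at 12 weeks in kidney (3.18 to 2.20 FPKM, adjusted p = 0.0499 in the authors' deposited table) and in liver (3.93 to 0.652 FPKM, adjusted p = 8.56e-04). In 18-month kidney it rose instead, from 5.54 to 19.9 units with 19.98 in females (castration adjusted p = 2.42e-04 in the authors' deposited table). For females against sham males it was not called there, nor was any of the 7 inhibitors. Cdkn2c, an inhibitor of Cdk4 and Cdk6, was at 1.83, 6.19 and 10.8 units in 18-month liver, and both castrated males and females were higher than sham males (adjusted p = 2.43e-04 and 2.88e-08 in the authors' deposited table). Ccnd1 and Cdkn2c were thus both higher in these female livers than in those of sham males.

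Of 7 inhibitors, 3 were tested for castration in each tissue at 12 weeks, and 1 rose and 1 fell in each. At 18 months all 7 were tested, and 2 rose and 0 fell with castration in 18-month kidney (median difference of the list 0.20), 2 rose and 0 fell in 18-month liver (0.37), and 2 were higher and 0 lower in females there (1.17). The medians and called shares of all genes are those given above for each comparison. Of the 12 retinoblastoma and other E2F genes, 0 rose and 2 fell with castration in 18-month kidney (Rbl2, 20.3 to 17.7 units, and E2f5, 21.9 to 20.1 units, with a list median of 0.02), and E2f8 rose in 18-month liver, from 0.867 to 3.43 units. Between females and sham males in 18-month kidney, Rb1 was higher in females (11.6 against 6.92 units) and E2f5 was lower (19.1 against 21.9 units, adjusted p = 0.0376 in the authors' deposited table). The retinoblastoma protein is the brake on E2F factors, and E2f8 is a repressor of the family.

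Of 17 genes of origin licensing and firing, 0 rose and 3 fell with castration in 18-month kidney (Mcm10, Orc3 and Orc2, with a list median of 0.09), and 0 were higher and 1 lower in females in 18-month liver (list median 0.14). Mcm10, which helps to activate the helicase, was the one that recurred. Its means were 4.70, 2.44 and 2.36 FPKM in 12-week kidney, 122, 61.3 and 43.4 FPKM in 12-week liver, 1.74, 1.18 and 0.890 units in 18-month kidney and 24.4, 14.4 and 10.4 units in 18-month liver. It fell with castration in the first 3 settings (adjusted p = 0.00163, 8.56e-04 and 0.00591 in the authors' deposited tables) and females were below sham males in both 18-month tissues (4.25e-04 in kidney and 0.0370 in liver). Its 12-week liver level in sham males exceeded that of every member in that tissue, and it went opposite to the 9 members that were higher in 18-month female liver.

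Of 19 polymerase and clamp loader genes, 5 were tested for castration in 12-week kidney, where 70.7% of all genes tested were called, and Pola2 (2.28 to 4.35 FPKM), Prim1 (4.37 to 6.68) and Pold3 (9.27 to 13.4) rose and Rpa1 (11.02 to 7.78) fell. In 12-week liver the 2 tested, Lig1 (1.36 to 3.55 FPKM) and Pold1 (2.45 to 5.48), rose, where 41.7% of all genes tested were called. At 18 months 0 rose and 2 fell with castration in kidney (list median 0.09), and none was called in liver in any of the 3 DESeq2 comparisons. Of 7 genes of deoxynucleotide supply, 1 rose and 1 fell with castration in 18-month kidney (list median 0.18). Rrm2b fell with castration in kidney at both ages, from 6.94 to 4.39 FPKM at 12 weeks and from 11.4 to 8.57 units at 18 months. Rrm2b encodes the form of the small reductase subunit used outside S phase, and it fell in the 18-month kidneys in which Rrm2 rose. Tk1, a thymidine kinase of S phase, rose with castration in 12-week liver from 31.6 to 95.1 FPKM and in 18-month kidney from 6.88 to 10.3 units.

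Of 33 further spindle and kinetochore genes with means (list median 0.50), 6 were higher and 1 was lower in 18-month liver of females against sham males. Of all genes, 5.87% were higher and 3.91% lower in that comparison. The higher ones included Racgap1 (0.0900 to 1.06 units) and Ect2 (0.293 to 1.28 units), which act in cytokinesis. The lower one was Ccnf, the cyclin F gene, at 7.59, 3.93 and 2.77 units, which also fell with castration (adjusted p = 3.92e-05 in the authors' deposited table) and fell in 12-week liver from 5.51 to 1.32 FPKM (adjusted p = 8.56e-04 in the authors' deposited table). In 18-month kidney 4 of the 33 rose with castration and 0 fell (list median 0.11), where 9.56% of all genes rose and 13.1% fell. The 4 were Spc25 (15.1 to 33.2 units), Kif23 (1.12 to 2.20), Spc24 (2.48 to 4.04) and Pttg1 (71.2 to 96.5). No mitotic member was called there. Ube2c and Ect2 were lower in castrated males than in females in kidney at both ages, at 1.01 against 5.86 and 0.343 against 1.64 FPKM at 12 weeks, and at 2.49 against 6.09 and 0.838 against 2.79 units at 18 months. Ube2c shares 22.8% of its exon bases with Tnnc2 on the other strand. Of 14 anaphase-promoting complex genes, 1 rose and 2 fell with castration in 18-month kidney, and none was called in 18-month liver in any of the 3 comparisons. Anapc7 fell with castration in kidney at 12 weeks (23.9 to 15.0 FPKM) and at 18 months (24.6 to 19.8 units).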

How the data were processed

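Kidney and liver RNA was measured in 3 arms at 2 ages. Libraries of poly(A) RNA from a Trizol extraction were read paired-end at 150 bp, per the labels' protocols. The submitters' processing notes name HISAT2, SAMtools, Cufflinks and mm10, without roles or versions. At 12 weeks the authors deposited FPKM as 1 mean per group, a unit named in the labels, and the lowest value, 0.01, stands for a gene listed at 0. The 12-week deposited tables hold a score for each test with its p-value before and after adjustment, laid out as Cuffdiff does, per the file headers. At 18 months the authors deposited a normalized expression signal whose unit is unnamed, again as group means. The 18-month deposited table holds log2 folds, p-values and q-values from DESeq2, per the file headers. Its folds are coded as the second-named group over the first, and turned round they had the direction of the means for 99.9% of the 4051 genes called for castration in kidney and for all genes called in the other comparisons.

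Means were compared as differences of log2(mean + 1) in Python 3.11.15, and 3 comparisons were made per tissue and age. Castration is castrated minus sham males, sex is females minus sham males, and the third is castrated males minus females. The authors' tests, with adjusted p under 0.05, are the tests reported. The implied standard error is the size of the log2 fold over the normal quantile that its p-value corresponds to, and 95% intervals use it. The steps were tested on simulated data. Members, lists and role groups were chosen with earlier results of these data known. Named genes are members that were called or reached a mean of 1 in a tissue, and, of each pathway list, up to 4 called genes per direction with the largest differences among those reaching a mean of 1. Promoters come from RefSeq, and gene positions and exon overlaps from GENCODE vM21. A pathway gene is not reported here and was left out of its list's counts. Metabolite tables were not used here.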

Additional observations from a re-analysis of the deposited data

How the results depend on the processing

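No paired analysis was possible because only group means and the authors' comparisons were used here, without values per library. For the same reason the planned fits leaving out each library and the replicate block were not run, nor was a test of kidney against liver, so no result has a check against a single library. None of the 40 calls of members in the 12 comparisons changed direction when centred on the median gene. A pseudocount of 0.1 cannot turn a direction, and the 18-month directions were taken from the authors' fold. Those settings therefore did not test direction. At an adjusted p under 0.01, 17 of the 40 were lost: counts went from 9 to 4 (12-week kidney, castration), 1 to 0 (12-week kidney, sex), 2 to 0 (12-week kidney, castrated males against females), 2 to 1 (12-week liver, castration), 7 to 5 (18-month kidney, castration), 3 to 1 (18-month kidney, castrated males against females), 2 to 1 (18-month liver, castration) and 9 to 6 (18-month liver, sex, without Ccnb1, Cdc20 and Bub1b). At an unadjusted p under 0.05, counts went from 2 to 4 and 3 to 5 for castrated males against females in 12-week and 18-month kidney, and in 18-month liver from 2 to 7 (castration), 9 to 20 (sex, 19 of them higher) and 1 to 16 (castrated males against females). The shares of all genes tested at that limit were 10.8%, 18.1%, 8.84%, 21.1% and 9.89% in the same order. With a mean of at least 1 required, 1 member was left in place of 2 for castrated males against females in 12-week kidney and for castration in 18-month liver. For sex in 18-month liver 7 were left in place of 9, without Mki67 and Bub1b. By a 2-fold limit on mean + 1, counts in 12-week kidney were 1, 0 and 0 for castration, sex and castrated males against females, in 12-week liver 1, 1 and 1, and in 18-month kidney 1, 0 and 0. That limit gave 6 in 18-month liver for sex, where the test gave 9. For castrated males against females there it gave 2, where the test gave 1.

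The cause was not tested beyond the stricter or looser limits themselves. The median sex difference of the 39 members in 18-month liver was 0.52 with 1 added, 1.32 with 0.1 added and 1.42 by the authors' fold. In that comparison the median implied standard error was 0.960 for members whose larger mean was below 1 and 0.397 for the others.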
